A study of Mus musculus with 2 samples.

Results

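The last 2 Mb of each mouse autosome, the stretch nearest to the telomere of the long arm, were examined for KDM2A in a ChIP-seq experiment on embryonic stem cells (ESCs). Windows of 10 kb were counted back on chromosomes 1 to 19 from the highest position that held a sequenced tag in either library, in the mm9 coordinates of the deposited counts. This gave 200 windows per chromosome and 3800 in all, of the 264195 windows of the series (1.44%). Of these, 3794 held a tag. They were compared with the 10 Mb before them on the same chromosome, called the flank here, with 19000 windows of which 18665 held a tag. Of the 335 empty flank windows, 181 lay on chromosome 2.

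Both libraries came from V6.5 ESCs, an established mouse line whose strain the sample labels give as C57BL/6 and whose growth notes give it as a cross of C57BL/6 with 129/sv. The cells carried no treatment or deletion. They were grown on inactivated embryonic fibroblasts and then passaged without feeders on gelatin before use. 1 library was made from DNA precipitated with an antibody specific to KDM2A and 1 from input DNA that was not precipitated, and both were amplified by 18 cycles of PCR. The KDM2A library held 10042076 tags and the input library 9760426. With 1 library per condition there was no replicate, so every test below compares these 2 libraries and covers counting error only. Gene expression was not measured, so that the cell type could not be checked against marker genes.

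KDM2A is a histone demethylase that removes methyl groups from lysine 36 of histone H3. Its zinc finger CxxC domain binds CpG dinucleotides that are not methylated, and such CpGs are gathered in CpG islands at the promoters of many genes. Mouse chromosomes carry their centromere next to the start of their numbering, so that the highest positions approach the telomere of the only long arm. The repeats of the telomere itself cannot be placed by short tags, and the windows therefore describe the unique sequence just inside it.

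Which sequence lies under the tags could not be read, because no mm9 sequence was used, and clusters of tags were not assigned to genes. Promoters of the last genes of chromosomes can be shown from RefSeq sequences of the later build GRCm38.p6, whose coordinates cannot be set against those of the tags. In the gene order of GRCm38.p6, the last 3 protein-coding genes were listed for the 8 chromosomes described most fully below. Promoters were found for 20 of these 24 genes. The 250 bases before the start site held a median of 6 CG dinucleotides over all 32851 promoters of the table, and 92.1% of promoters held at least 1. On chromosome 4, Noc2l, which encodes a nucleolar protein, and Vmn2r129, a vomeronasal receptor gene, are among the last 3 genes. On chromosomes 17 and 12, Mettl4, which encodes an RNA methyltransferase, and Macc1, named for its association with metastasis in colon cancer, are the last genes but 1. These 4 promoters are printed because they show, with CG in capitals, how far CpG content varies among the last genes of these chromosomes. They are the 250 bases before the start site, read 5′ to 3′ on the strand of the gene.
Noc2l: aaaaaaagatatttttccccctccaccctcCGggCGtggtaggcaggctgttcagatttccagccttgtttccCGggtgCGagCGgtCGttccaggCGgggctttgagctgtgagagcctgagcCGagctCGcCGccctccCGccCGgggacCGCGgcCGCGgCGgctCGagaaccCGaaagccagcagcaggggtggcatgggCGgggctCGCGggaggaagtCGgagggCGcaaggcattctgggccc
Vmn2r129: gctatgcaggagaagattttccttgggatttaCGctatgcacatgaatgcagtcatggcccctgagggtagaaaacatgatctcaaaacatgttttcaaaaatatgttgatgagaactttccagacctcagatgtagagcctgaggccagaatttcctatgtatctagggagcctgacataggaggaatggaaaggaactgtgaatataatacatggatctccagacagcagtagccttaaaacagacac
Mettl4: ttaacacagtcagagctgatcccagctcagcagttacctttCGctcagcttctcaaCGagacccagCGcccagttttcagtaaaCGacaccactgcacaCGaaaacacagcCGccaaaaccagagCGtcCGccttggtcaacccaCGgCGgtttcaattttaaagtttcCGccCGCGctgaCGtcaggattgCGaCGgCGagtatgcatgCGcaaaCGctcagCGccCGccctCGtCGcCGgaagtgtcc
Macc1: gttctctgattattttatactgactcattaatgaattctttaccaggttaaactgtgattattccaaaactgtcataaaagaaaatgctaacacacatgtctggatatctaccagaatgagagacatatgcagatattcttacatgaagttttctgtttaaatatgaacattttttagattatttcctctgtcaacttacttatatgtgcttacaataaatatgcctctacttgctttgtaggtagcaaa
The Noc2l promoter (GRCm38.p6 chr4:156235765-156236014, plus strand) held 24 CG dinucleotides, a number reached by 12% of promoters. The Vmn2r129 promoter (chr4:156330853-156331102, plus strand) held 1. The Mettl4 promoter (chr17:94750020-94750269, minus strand) also held 24, and the Macc1 promoter (chr12:119443160-119443409, plus strand) held 0. In GRCm38.p6 the last genes of chromosome 4 thus included CpG-rich and CpG-poor promoters. Whether these promoters lie in the windows examined here was not determined.

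Summed over the 19 autosomes, KDM2A tags relative to input were slightly fewer at the ends than in the flanks. The ends held 186656 KDM2A and 166371 input tags, a ratio of 1.09 after input was multiplied by 1.03, the ratio of the library totals. The flanks held 1105945 KDM2A and 907102 input tags, a ratio of 1.19. The end-to-flank ratio, which is the first ratio divided by the second, was 0.92 (95% interval 0.914 to 0.927). The sum hides a wide spread between chromosomes. The ratio of KDM2A to input at single ends ran from 0.646 to 1.93, with a median of 0.868, and in single flanks from 0.797 to 1.60, with a median of 1.12. It was above 1 at 5 ends and in 12 flanks. A ratio under 1 is common in these libraries, and the median 10 kb window of the autosomes with at least 10 input tags had a ratio of 0.748.

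14 of the 19 ends lay below their flank and 5 above it, each with an adjusted p under the limit of 0.05 (Fisher's exact test, two-sided, Benjamini-Hochberg adjustment over 19). This count cannot be read alone, since counting error is small beside the variation along any chromosome: of 1129 stretches of 2 Mb on the autosomes, the same test put 50.9% below and 38.2% above the 10 Mb before them. The 5 ends above their flank were those of chromosomes 4, 2, 11, 15 and 7. For 3 of them the direction depended on the length of the flank, and with 5 Mb chromosomes 7 (0.912), 11 (0.921) and 15 (0.914) lay below it. Chromosome 4 had the highest end-to-flank ratio, 1.30 (95% interval 1.27 to 1.33; adjusted p = 2.43e-99, Fisher's exact test), with 25189 KDM2A and 12690 input tags at its end. Chromosome 2 followed with 1.26 (1.22 to 1.29), then chromosome 11 with 1.13 (1.10 to 1.15), chromosome 15 with 1.09 (1.06 to 1.12) and chromosome 7 with 1.09 (1.06 to 1.12). The intervals of chromosomes 4 and 2 overlapped, as did those of chromosomes 11, 15 and 7.

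The lowest end-to-flank ratio was that of chromosome 8, at 0.472 (95% interval 0.458 to 0.487). Its end held 7794 KDM2A and 10504 input tags, a ratio of 0.721, and its flank 132717 KDM2A and 84452 input tags, a ratio of 1.53. The low value thus joined an end like those of other chromosomes to one of the flanks richest in KDM2A. Chromosome 12 followed with 0.546 (0.525 to 0.568), from 0.761 at the end and 1.39 in the flank. Chromosome 17 had 0.607 (0.580 to 0.634) and the lowest ratio at any end, 0.646. Chromosome 18 had 0.685 (0.653 to 0.718), from 0.663 at the end and 0.968 in the flank. Of the 1110 stretches of 2 Mb other than the ends, 0.721% had a value relative to the 10 Mb before as low as that of chromosome 8, and 14.2% had one as high as that of chromosome 4. The median over these stretches was 0.959, with quartiles of 0.794 and 1.14, and the median over the 19 ends was 0.826.

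Each end was then set against the 5 stretches of 2 Mb before it, whose range gives the spread along the chromosome. The ends of chromosomes 1, 5 and 8 lay below all 5, that of chromosome 4 lay above all 5, and the other 15 lay within the range. Over 1117 stretches of the autosomes, 17.1% lay below all 5 before them and 20.3% above. The 3 and 1 of 19 ends did not exceed these shares, but with stretches of 1 Mb 6 of 19 ends lay below all 5 before them, against 19% of such stretches over the autosomes. Among all 2 Mb stretches of its own chromosome, the end of chromosome 4 had the highest ratio of 77. The end of chromosome 11 ranked 2 of 60, that of chromosome 2 ranked 7 of 90, and that of chromosome 17 ranked 43 of 47.

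**Figure D1:**
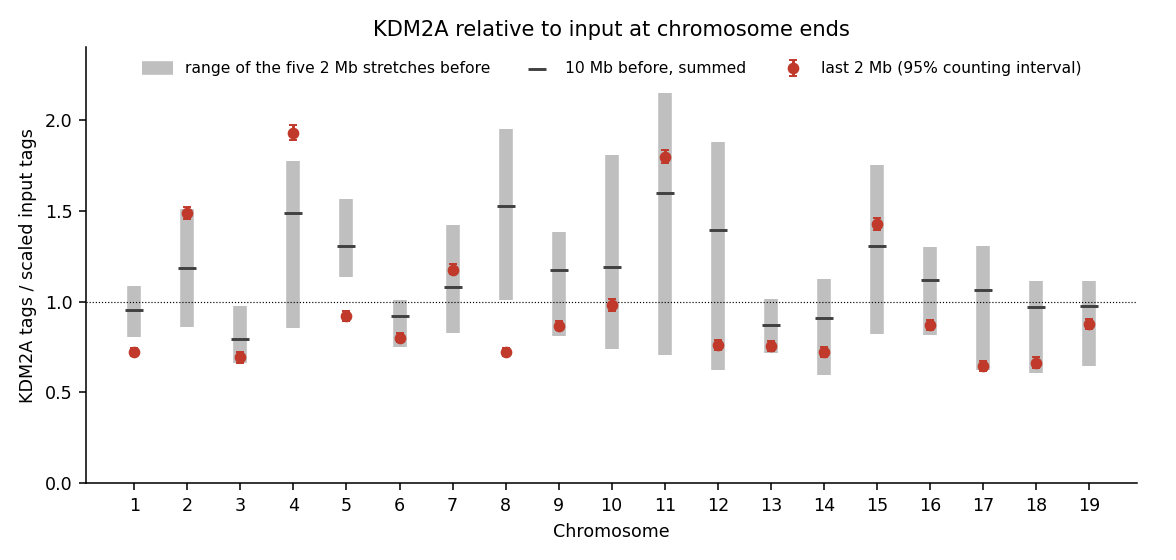
KDM2A tags divided by scaled input tags (vertical axis) for each autosome (horizontal axis), with the last 2 Mb as red points with 95% counting intervals, the 10 Mb before as black dashes and the range of the 5 stretches of 2 Mb before as grey bars. The end of chromosome 4 (1.93) lies above its grey bar, those of chromosomes 1, 5 and 8 (0.723, 0.919 and 0.721) lie below theirs, and the other 15 lie within.

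Tags of both libraries were fewer at the ends than in the flanks, KDM2A tags more so. Per window with tags, the ends held 49.2 KDM2A tags against 59.3 in the flanks, a fold of 0.830, and 43.9 input tags against 48.6, a fold of 0.902. The median window held 31 KDM2A and 42 input tags at the ends, and 43 and 48 in the flanks. Over all windows of the series the medians were 26 and 36, so both libraries were denser at the ends than in the typical window. KDM2A density was lower than in the flank on 14 chromosomes and input density on 13. The 5 ends above their flank were also the 5 with the most input tags, 11070 to 13830 against 4699 to 10504 on the others. Across the 19 ends, Pearson's r between input tags and the ratio of KDM2A to input was 0.807 and Spearman's rho 0.795, a description over points that share both libraries. The part of input depth in the ratio was not tested. Tags beyond the first at a position and strand made up 4.89% of KDM2A and 20.7% of input tags at the ends, close to 5.01% and 21.5% in the flanks, and with 1 tag per position and strand the summed end-to-flank ratio was 0.911.

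The ratio was not even along the last 2 Mb. In the terminal 100 kb the sum over chromosomes was 7988 KDM2A and 6603 input tags, a ratio of 1.18 (95% interval 1.14 to 1.21), but the median over chromosomes was 0.863. Chromosome 4 alone gave 21.5% of these KDM2A tags, with 1714 KDM2A and 493 input tags and a ratio of 3.38, and without it the ratio of the sum was 0.998. The terminal 100 kb were above 1 on 5 chromosomes. Chromosome 19 had 835 KDM2A and 430 input tags (1.89), chromosome 13 had 760 and 501 (1.47), chromosome 7 had 904 and 679 (1.29) and chromosome 18 had 366 and 337 (1.06). Chromosome 9 had the lowest ratio, 0.452, from 162 and 348 tags. Clusters of tags, described below, held 60.2% of the KDM2A tags in the terminal 100 kb of chromosome 19, 56.8% on chromosome 4 and 42.5% on chromosome 13. With clusters left out, the terminal ratio was 0.832 on chromosome 19 and 0.913 on chromosome 13, and stayed above 1 on chromosomes 4 (2.0) and 7 (1.24). Clusters were called for an excess of KDM2A in these same tags, so a lower ratio without them is a description only. Just the bins of the clusters were left out here, so tags beside them still count in these ratios.

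Inward from the terminal 100 kb, the summed ratio was 0.919 and 0.885 in the next 2 steps, was lowest at 0.871 between 800 and 900 kb, and reached 1.31 between 1900 and 2000 kb. In the flank, steps of 1 Mb ran between 1.13 and 1.33 as far as 10 Mb from the end and were 0.936 and 0.984 beyond it. On the 14 chromosomes whose end lay below the flank, the ratio over the last 2 Mb together was 0.797, against 1.12 in their flanks. On the 5 others it was 1.57, against 1.35 in their flanks. Both directions were fixed by this grouping and are given as a description. The last 1 Mb had a lower ratio than the 1 Mb before it in the sum, 1.01 against 1.16, but on 9 of the 19 chromosomes (47.4%), and 48.5% of 2393 neighbouring pairs of 1 Mb on the autosomes were ordered that way.

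**Figure D2:**
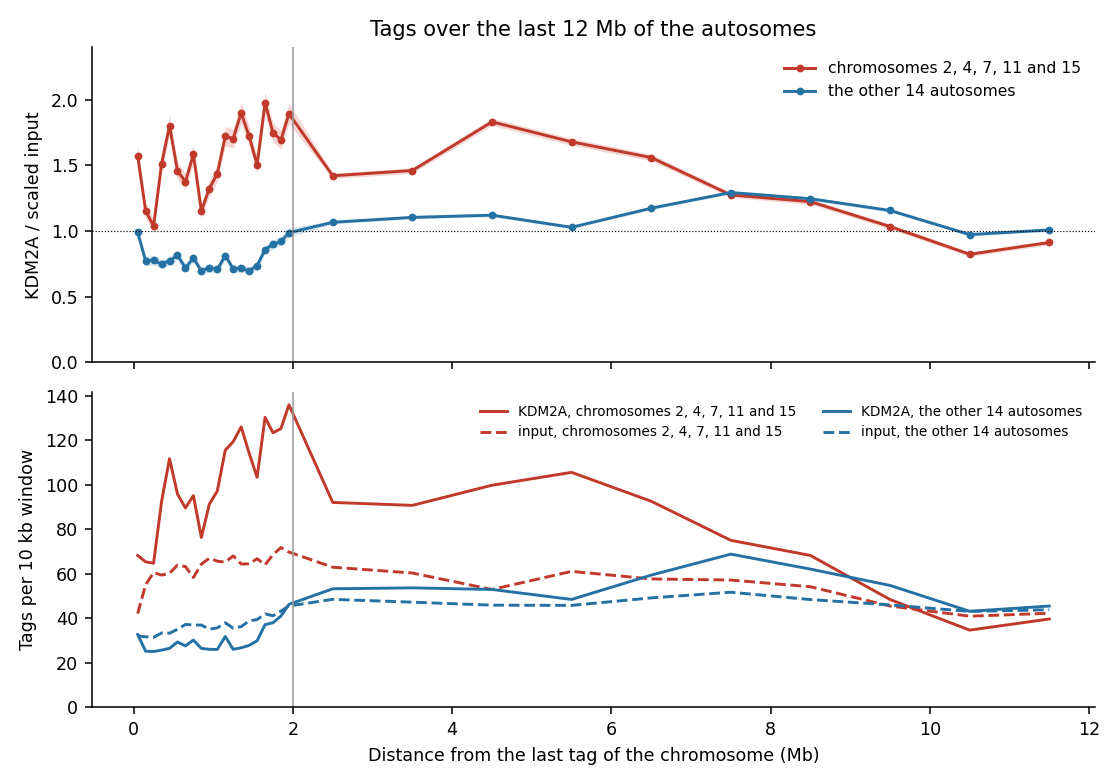
Ratio of KDM2A to scaled input with its 95% counting interval (upper panel) and tags per 10 kb window with tags (lower panel; solid lines KDM2A, dashed lines input) against distance from the last tag in Mb, in steps of 100 kb up to the vertical line at 2 Mb and of 1 Mb beyond it. Chromosomes 2, 4, 7, 11 and 15, grouped after their values were seen, are in red and the other 14 in blue. Over the last 2 Mb the red ratio is 1.57 and the blue ratio 0.797, and the lines meet between 7 and 8 Mb from the end.

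Chromosomes 4 and 11, the ends with the highest ratios, were built differently. On chromosome 4 all 20 steps of 100 kb were above 1, between 1.39 and 3.38, with the maximum at the very end. On chromosome 11 the terminal 100 kb were at 0.764 and the maximum, 3.79 from 2536 KDM2A and 651 input tags, lay between 1600 and 1700 kb. The last 1 Mb of chromosome 11 held 6415 KDM2A and 6090 input tags (1.02), and the 1 Mb before it held 19169 and 7740 (2.41). The last 1 Mb taken alone therefore lay below the flank of chromosome 11, at 0.641 of it (95% interval 0.618 to 0.665). On chromosome 10, too, the last 1 Mb was at 0.633 and the 1 Mb before at 1.21. Chromosomes 8 and 17 had no step above 1. In the flank of chromosome 8, steps of 1 Mb ranged from 0.828 to 2.18.

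**Figure D3:**
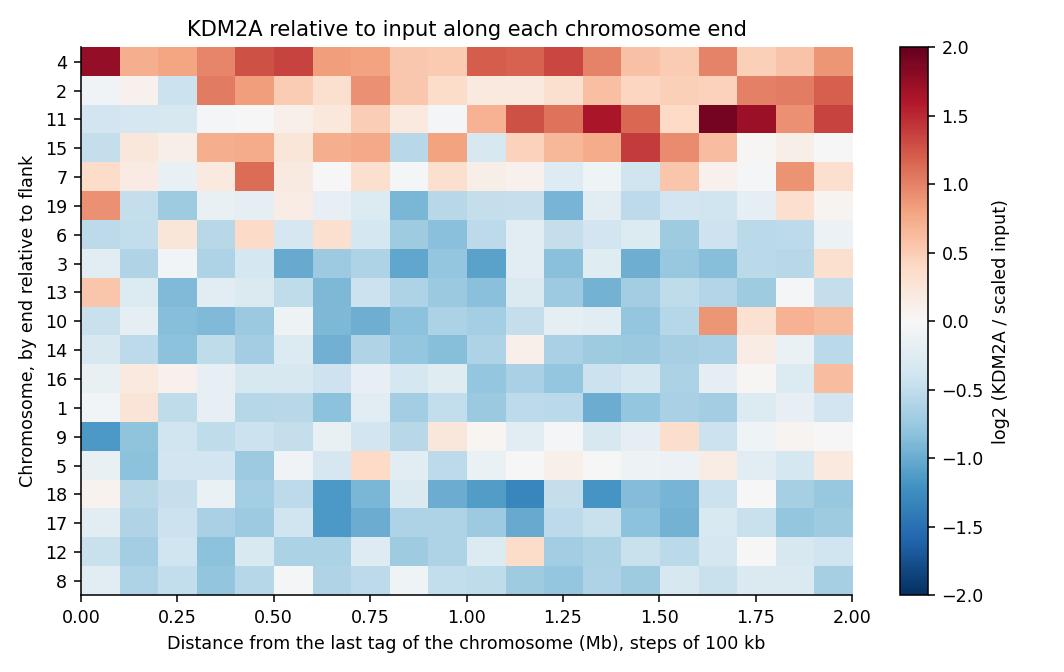
Log2 of KDM2A divided by scaled input (colour, red above and blue below 0) in 20 steps of 100 kb from the last tag (horizontal axis, in Mb) for each autosome (rows, ordered from the highest to the lowest end-to-flank ratio). Chromosome 4 is red throughout with its strongest step (ratio 3.38) at the end, chromosome 11 reaches at most 1.41 within 1 Mb of the end and has its strongest step (3.79) between 1600 and 1700 kb, and chromosomes 8 and 17 have no step above 1.

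Clusters of KDM2A tags divided the ends in the same way. A cluster is a run of 250 bp bins whose KDM2A tags exceeded the genome mean and the scaled input of the surrounding 5 kb (one-sided exact Poisson test, adjusted p under 0.01, tags moved 50 bp, bins within 500 bp merged), and its height is the tag number of the bin with the most KDM2A tags. Over the series 1.05% of bins were called. The ends held 915 clusters, or 24.1 per Mb, and the flanks 5632, or 29.6 per Mb, a fold of 0.812. The whole series held 17.3 per Mb. With KDM2A and input exchanged, the same calls gave 261 clusters at the ends, and with 1 tag per position and strand the exchange gave 6. Clusters at the ends held 22.4% of the KDM2A tags there in the sum, against 18.5% in the flanks. At single ends the share was 16.6% to 39.4% on the 5 chromosomes whose end exceeded the flank and 5.70% to 20.8% on the other 14. Clusters at the ends were fewer per Mb than in the flanks but somewhat taller in the sum. A height of at least 15 was reached by 43.7% against 33.4%, and the median height was 13 against 12. The same 5 ends held 70.4% of the end clusters, so both sums describe mainly those ends. Heights were not compared chromosome by chromosome.

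Clusters were fewer per Mb than in the flank on 14 chromosomes and more on 5, the same 5 whose ratio exceeded the flank. These 5 ends held 644 of the 915 clusters (70.4%). Chromosome 4 had 170, chromosome 11 had 152, chromosome 15 had 128, chromosome 2 had 120 and chromosome 7 had 74, while the other 14 had between 9 and 36. Chromosome 8 had 12 clusters at its end, 6.00 per Mb, against 71.8 per Mb in its flank. With KDM2A and input exchanged, this end gave 28 clusters, more than its 12, and the flank gave 69 against 718. Exchanged calls also outnumbered the clusters at the ends of chromosomes 1 (19 against 13) and 6 (24 against 22), and were fewer at every other end. Low cluster counts of single ends therefore lay near the number called with the libraries exchanged. The share of KDM2A tags inside clusters ran from 5.70% on chromosome 8 to 39.4% on chromosome 11. Across the 19 ends the number of clusters and the ratio followed nearly the same order (Spearman's rho 0.980), a description in which both quantities rest on the same tags.

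**Figure D4:**
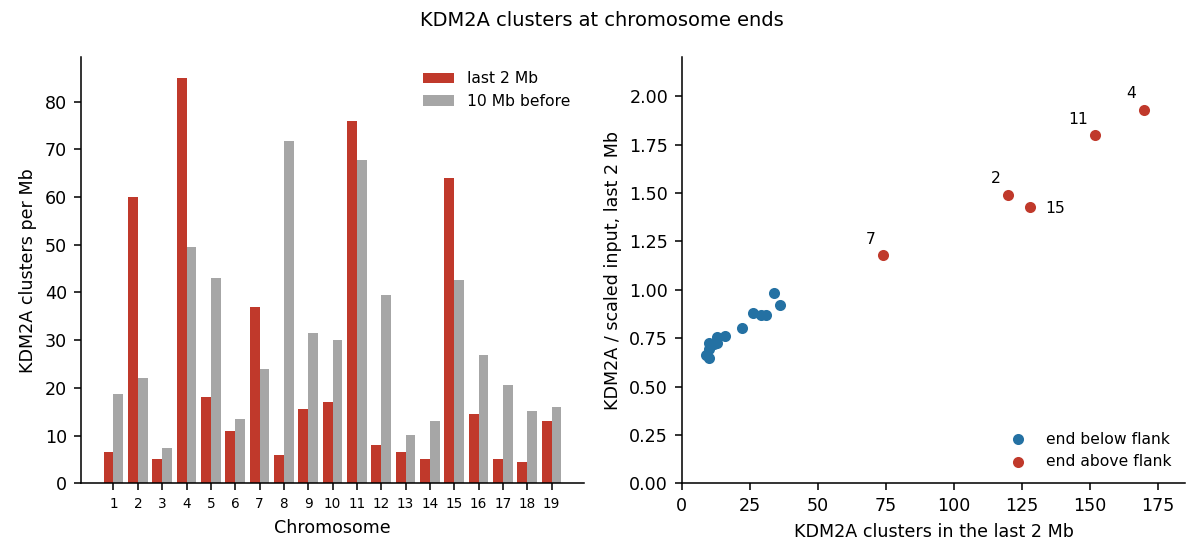
Left, KDM2A clusters per Mb (vertical axis) in the last 2 Mb (red) and the 10 Mb before (grey) of each autosome. Right, KDM2A divided by scaled input in the last 2 Mb (vertical axis) against the number of clusters there, 1 point per chromosome, red where the end lies above its flank. The 5 red points, labelled by chromosome, hold 74 to 170 clusters and the 14 blue points 9 to 36.

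Outside clusters and the 1 kb around them, KDM2A tags relative to input were also fewer at the ends in the sum. The ratio of KDM2A to input there was 0.799 at the ends and 0.917 in the flanks, an end-to-flank ratio of 0.871. It lay below 1 on 17 of the 19 chromosomes, whereas 54.2% of the 1110 other stretches of 2 Mb, counted the same way, lay below 1. The 2 above 1 were chromosomes 4, at 1.13, and 7, at 1.08. On chromosomes 2 (0.977, 95% interval 0.947 to 1.01) and 15 (0.999, 0.968 to 1.03) end and flank could not be told apart outside clusters. These 2 of the 17 thus lay below 1 in point value only. The other stretches were counted by point value, so no count by interval is given for the ends. Chromosome 11, whose end exceeded the flank when all tags were counted, was at 0.920 (0.893 to 0.947).

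The tallest clusters of the ends were listed as 2 kinds, divided by a set limit of 10 times the input mean in the highest input bin. Among those whose highest input bin was under 10 times the input mean, the tallest was on chromosome 4 from 155113501 to 155115500, with 221 KDM2A and 14 input tags and a height of 87 (adjusted p = 5.15e-107, exact Poisson test). Its KDM2A tags lay at 196 positions, with at most 3 at any of them, 119 on the plus and 102 on the minus strand. Another cluster of chromosome 4, from 155068251 to 155070250, held 246 KDM2A and 11 input tags with a height of 70. Of the 10 tallest of this kind, 4 were on chromosome 11, 3 on chromosome 4 and 1 each on chromosomes 8, 16 and 19.

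Tall clusters were not limited to ends with high ratios. On chromosome 16, where the end lay below its flank, the cluster from 96380251 to 96382000 held 177 KDM2A and 9 input tags with a height of 61. On chromosome 8, with the lowest end-to-flank ratio, the cluster from 131209001 to 131210500 held 144 KDM2A and 7 input tags with a height of 50, a height reached by 0.806% of the clusters of the series. The 100 kb step that holds it had the highest ratio of that end, 0.974. On chromosome 19 the cluster from 60831501 to 60833250 held 230 KDM2A and 13 input tags with a height of 46.

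On chromosome 11 the widest of these clusters ran over 6000 bp, from 119871001 to 119877000, with 430 KDM2A and 69 input tags, a height of 54 and a ratio of 6.06. The cluster from 120485501 to 120487250 had the same height with 159 KDM2A and 4 input tags, a ratio of 38.6. The cluster from 120643001 to 120647250 held 333 and 29 tags, and that from 120238751 to 120240750 held 200 and 24. All 4 lay more than 1 Mb from the end of chromosome 11, in the part where its ratio was high. The remaining cluster of the 10, on chromosome 4 from 154937501 to 154938750, held 105 and 6 tags.

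The 2 tallest clusters of all ends belonged to the other kind, in which an input bin also reached 10 times the mean. The cluster on chromosome 19 from 61275501 to 61275750 was a single bin of 163 KDM2A and 11 input tags, 66610 bp from the end. Its KDM2A tags lay at 91 positions with up to 7 at the same one, the highest count per position in the library, and its height fell to 91 with 1 tag per position and strand. The cluster on chromosome 1 from 197067751 to 197068250 held 136 KDM2A and 11 input tags with a height of 125, which became 74 with 1 tag per position and strand. For the tallest cluster of the first kind the height became 72. The clusters on chromosomes 19 and 1 were thus narrower and held more copies per position than the tallest of the first kind. The next cluster with high input, on chromosome 2 from 181404751 to 181406500, did not share these traits. It was 1750 bp wide with at most 3 KDM2A tags at a position. It held 182 and 16 tags with a height of 43, and 40 with 1 tag per position and strand.

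KDM2A clusters were called up to the last tags of several chromosomes. The distance from the last cluster to the last tag had a median of 25676 bp. It was within 10 kb on 7 chromosomes and within 100 kb on 16, and was longest on chromosome 9, at 293055 bp. Clusters numbered 24.1 per Mb over the ends and 17.3 per Mb over the series. The distance from other points of the chromosomes to a cluster was not computed, so these counts show no trait particular to the ends. Most of the last clusters were low. On chromosome 13 the last cluster, from 120276501 to 120278000, was the tallest of them, with 116 KDM2A and 24 input tags and a height of 36. On chromosome 12 the last cluster, from 121235251 to 121235750, held 25 KDM2A and 0 input tags. On chromosome 15 it held 64 and 3 tags, and on chromosome 14 it held 38 and 2. On chromosome 4 the last cluster lay 568 bp from the last tag, with 28 KDM2A and 11 input tags. Of the 19, the one on chromosome 16, with a height of 7, was not called with 1 tag per position and strand.

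Single 10 kb windows gave the same division between chromosomes, a description, since the ratios of the ends are sums over the same windows. KDM2A exceeded input in 405 of the 3794 windows of the ends (10.7%) and fell below it in 228 (6.01%), by an exact binomial test with an adjusted p under 0.01 over all windows. The shares over the series were 7.29% and 5.41%, and in the flanks 13.0% and 3.63%. The higher share of called windows at the ends than in the series rested on the 5 chromosomes named above, which held 312 of the 405 windows (77.0%): 93 on chromosome 4, 71 on chromosome 11, 65 on chromosome 2, 55 on chromosome 15 and 28 on chromosome 7. No other end held more than 15, and chromosome 17 held 1. Windows below input ranged from 1 on chromosome 4 to 24 on chromosome 8. With input scaled by the median window instead of the totals, 612 windows were above and 34 below, so the division between higher and lower windows depends on the scaling, whereas end-to-flank ratios do not.

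The 5 windows with the most KDM2A tags were all on chromosome 11, where the window from 120143677 to 120153676 held 524 KDM2A and 54 input tags, a ratio of 9.43. The window with the most input tags was the terminal window of chromosome 13, from 120274215 to 120284214, with 233 KDM2A and 121 input tags (ratio 1.87; adjusted p = 2.98e-07, exact binomial test). It contains the last cluster of that chromosome, and with 1 tag per position and strand it held 219 and 96. The next windows by input were on chromosome 7 from 151964489 to 151974488, with 100 KDM2A and 117 input tags, and on chromosome 2 from 179788022 to 179798021, with 78 and 115. In neither was KDM2A called different from input (adjusted p = 0.322 and 0.0271, exact binomial test, against a limit of 0.01). No window of the ends or flanks reached 10 times the input mean of 38.5 tags.

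The opposite, centromere-proximal ends gave similar values. The first 2 Mb that held tags on chromosomes 1 to 19 had a summed ratio of 1.06 and a median over chromosomes of 0.844, against 1.09 and 0.868 at the telomere-proximal ends. Of these 19 ends, 6 were above 1, and the telomere-proximal end had the higher ratio on 9 chromosomes.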

How the data were processed

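The deposited values are raw counts of tags per chromosome, strand and position, which the authors made from their aligned reads. Per the labels' processing notes they used Bowtie and mm9, and its version was not given in the sources used here. The highest count per position was 7 in the KDM2A and 9 in the input library. Samples were grouped by their labels, and 0 columns were left unused. From the counts, end and flank were compared with Fisher's exact test, 10 kb windows with an exact binomial test, and 250 bp bins of all 10 kb blocks with tags by an exact Poisson test, Benjamini-Hochberg adjusted. Tests ran in scipy 1.17.1 and counting in pandas 2.3.3 and numpy 2.4.6 under Python 3.11.15, with figures from matplotlib 3.10.9. PCR copies are not independent molecules, so intervals and tests on all tags can understate even the counting error. With 1 library per condition, they cover no other variation.

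Regions named were the chromosomes with the 4 highest and 4 lowest end-to-flank ratios (chromosome 7, the chromosomes compared by step, by terminal 100 kb or by windows with the most KDM2A tags were added after their values were seen), the 10 tallest clusters with the highest input bin under 10 times the input mean, the 3 tallest others, the 3 windows with the most input and the last cluster of each chromosome. The regions, rules and lists were chosen with earlier results of these data known. Base composition was not analysed here, since no mm9 sequence was used. On simulated tags over 253264 windows, 12 of 50 windows changed 2-fold, 35 of 50 changed 3-fold and 50 of 50 changed 6-fold were called. Of 253064 others, 3 were called. These others were simulated at the same share of KDM2A tags that the test uses, so the 3 give no rate of false calls in the data. The changed windows were drawn from those with at least the median number of tags, so the rates for changed windows do not cover windows with fewer. Clusters were simulated apart from these windows, in Poisson bins fewer than the bins of the data. There, 73 of 200 clusters at 5 times the mean and 197 of 200 at 10 times were found.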

Additional observations from a re-analysis of the deposited data

Results flagged for a closer look

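The end of chromosome X, outside the 19 autosomes, gave a signal above its flank. Its last 2 Mb held 4004 KDM2A and 3774 input tags, a ratio of 1.03, and the 10 Mb before held 13594 and 18073, a ratio of 0.731. The end-to-flank ratio was 1.41 (95% interval 1.34 to 1.48), and 1.37 with 1 tag per position and strand. Of its windows 11 were empty. The signal lay in 3 neighbouring windows: those from 166428377 to 166438376, from 166418377 to 166428376 and from 166438377 to 166448376 held 990, 726 and 257 KDM2A tags and 396, 202 and 161 input tags. Both libraries were thus far above the input mean of 38.5 tags per window there. Without these 3 windows, which were chosen after their values were seen, the end held 2031 and 3015 tags and the end-to-flank ratio was 0.896 (0.843 to 0.951). Outside clusters and the 1 kb around them it was 0.916.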

How the results depend on the processing

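Of 265 values recomputed under other settings, 237 kept their direction and their side of the threshold or moved little. Of the rest, 20 moved, 7 reversed and 1 was no longer past the threshold, and the causes were not tested. Part of the 237 could not change, so their number overstates the stability. The scaling of input cancels in every end-to-flank ratio, and no end or flank window reached 10 times the input mean. Leaving out chromosomes 8 and 11 does not touch the ratios of the other single chromosomes. The summed end-to-flank ratio stayed below 1 in each setting tried, with 0.855 for the last 1 Mb the lowest, and ran from 0.875 without chromosome 4 to 0.970 without chromosome 8 when each chromosome was left out in turn. On single chromosomes, the ratio turned below 1 with the last 1 Mb on chromosome 11 (0.641), with a flank of 5 Mb on chromosomes 7 (0.912), 11 (0.921) and 15 (0.914), and outside clusters on chromosomes 2 (0.977), 11 (0.920) and 15 (0.999), so that of the 5 ends above their flank only that of chromosome 4 kept its direction in all of these. Windows of KDM2A below input numbered 134 with 1 tag per position and strand, 24 at a limit of 0.0001, 34 with input scaled by the median window and 134 with 5 kb windows, and windows above it 612 with the median scaling. Clusters at the ends numbered 580 at a limit of 0.0001 (fold per Mb to the flanks 0.961) and 1403 against the genome mean alone (0.704). With KDM2A and input exchanged there were 6 with 1 tag per position and strand, 14 at 0.0001, 133 with 500 bp bins and 1242 against the genome mean alone. The terminal 100 kb had a ratio of 1.13 with 1 tag per position and strand, 0.863 as the median over chromosomes and 0.989 without chromosomes 2, 4, 7, 11 and 15. The fold of KDM2A density was 0.720 for the last 1 Mb, and that of input 0.843 for the last 1 Mb and 0.912 with 1 tag per position and strand. With stretches of 1 Mb, 6 ends lay below all 5 before them, against 19% of such stretches over the autosomes. Leaving out each chromosome in turn, the 5 chromosomes from the terminal 100 kb, and windows of high input from the window counts were alternatives chosen after the data were seen. No paired analysis was possible because KDM2A and input were represented by 1 library apiece, and no replicate could be left out.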

Other observations

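Some of the last clusters had most of their KDM2A tags on 1 strand. On chromosome 9 the last cluster, from 123782251 to 123782500, held 19 plus and 2 minus KDM2A tags and 10 plus and 1 minus input tags. On chromosome 19, from 61340251 to 61340500, the KDM2A tags were 9 plus and 2 minus and the input tags 6 and 2, and on chromosome 2, from 181747501 to 181748250, the KDM2A tags were 17 plus and 5 minus and the input tags 4 and 3, close to even. In the tallest cluster of chromosome 8, from 131209001 to 131210500, KDM2A tags were 73 plus and 71 minus. The ratio of KDM2A to input was 1.86 in the last cluster of chromosome 9 and 1.34 in that of chromosome 19, against 8.21 over all clusters of the ends. The last 2 Mb of chromosome Y had a ratio of 0.622 and an end-to-flank ratio of 0.958 (95% interval 0.860 to 1.07), with 49 empty windows.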
